A study of Mus musculus with 25 samples.

Results

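Agtr2, the type 2 angiotensin receptor, was examined together with 6 other genes of the renin-angiotensin system in the compartments of the mouse palate. The 7 genes (Agtr2, Agtr1a, Agtr1b, Mas1, Agt, Ace and Atp6ap2) were found by symbol among the 37406 genes of the table, and each had 1 entry. The set was chosen by name, and Agtr2 was selected on its RPKM levels in these same libraries, already known to be high and to differ between compartments, so its levels are described here with no test of that difference.

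The renin-angiotensin system is a hormone cascade. Agt encodes angiotensinogen, which renin cuts to angiotensin I, and the peptidase encoded by Ace trims that peptide to angiotensin II. Angiotensin II acts through type 1 receptors, encoded in mice by Agtr1a and Agtr1b and known for vasoconstriction, and through the type 2 receptor, which often opposes them and is known for high expression in fetal mesenchyme that declines after birth. Mas1 encodes a receptor for a shorter angiotensin peptide, and Atp6ap2 encodes the (pro)renin receptor, which is also an accessory subunit of the vacuolar proton pump.

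RNA came from palates of wild type CD1 mice at E14.5, soon after the shelves meet in the midline, cut out by laser capture microdissection (LCM). The anterior and the posterior palate were each taken as medial and lateral, and again as oral and nasal compartments, so that both schemes divide the same shelves in different ways and overlap. There were 25 libraries, 3 for each of the 8 compartments and 4 for anterior nasal. No allele or agent was compared, and which libraries came from the same embryo is not given in the labels.

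Levels are in RPKM, read density scaled to transcript length and to the mapped reads of the library, as deposited. The values imply 1.64 to 6.56 M reads per library, and 12935 to 20605 genes above 0. Replicate 2 of posterior medial stood apart in genes above 0 (12935, against at least 16330 elsewhere). It also had the lowest agreement with its own replicates (median r 0.652 across genes, against up to 0.926 elsewhere). In agreement it was followed by replicate 1 of anterior oral (0.703) and replicate 1 of posterior medial (0.725). Replicate 1 of anterior oral also had the fewest implied reads (1.64 M). It held the highest Agtr2 (294 RPKM) and Atp6ap2 (17.8 RPKM) levels of all libraries. The libraries were read in 8 sequencing runs, coded A to H here, of which run C held 1 library each of anterior oral, anterior nasal, posterior oral and posterior nasal. The names of the alignments of those 4 libraries carry Tgfbr2_WT, and those of replicate 1 of posterior lateral and of posterior medial carry ERK2_WT. Summed markers of palatal mesenchyme (5 of 5 genes found) lay between 394 and 712 RPKM.

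Agtr2 (gene ID 11609, chromosome X, 21061752 to 21065957, mm9) was the most abundant of the 7 genes in each of the 25 libraries. Its level averaged 132 RPKM and 185 genes of the table had a higher mean, which is 0.495% of them. Each library held about 239 to 2793 reads of it, so that counting error was small beside the spread between replicates. The number of genes above it in a library ranged from 65 to 3069, with a median of 191.

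The Agtr2 level was 171, 221 and 222 RPKM in anterior lateral and 129, 148 and 151 RPKM in anterior medial. In anterior oral it was 294, 221 and 86.0 RPKM, and in anterior nasal 170, 179, 252 and 130 RPKM. Anterior lateral lay above anterior medial in each library, and the anterior oral libraries spread most widely, from below to above those of the other anterior compartments.

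In the posterior palate the Agtr2 level was 143, 94.4 and 115 RPKM in posterior lateral, and 84.3, 34.4 and 89.4 RPKM in posterior medial. It was 66.1, 95.9 and 113 RPKM in posterior oral and 26.9, 45.3 and 29.1 RPKM in posterior nasal. Posterior nasal was the lowest compartment, and its range met that of posterior medial at replicate 2, the library that stood apart.

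**Figure D1:**
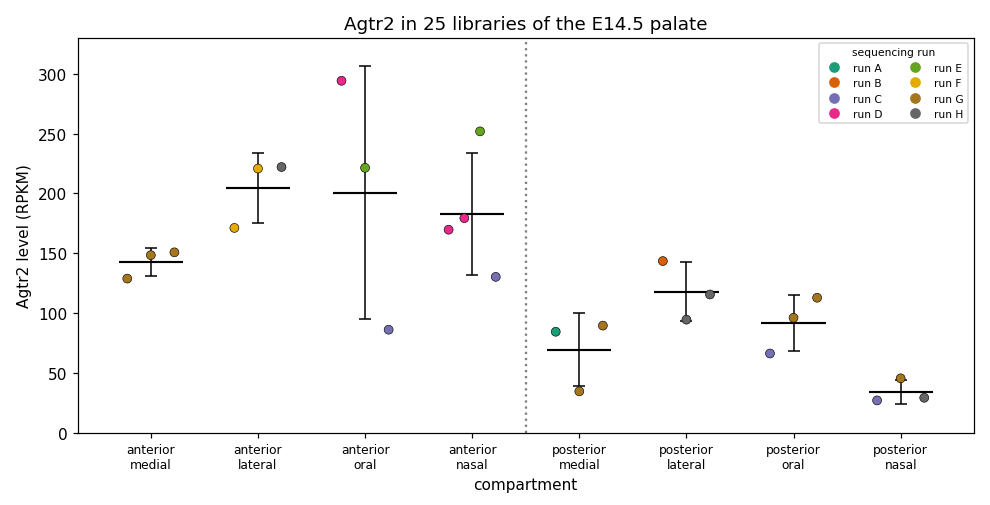
Agtr2 level in RPKM (vertical axis, linear, from 0) in each of the 25 libraries by compartment, with points coloured by sequencing run, the mean as a horizontal line and the SD as a bar (n = 3, and 4 for anterior nasal). The 3 posterior nasal libraries sit between 26.9 and 45.3 RPKM, and the 13 anterior libraries between 86.0 and 294 RPKM.

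Ordered by the median, Agtr2 ran from anterior oral (221 RPKM) and anterior lateral (221 RPKM) through anterior nasal (174 RPKM), anterior medial (148 RPKM), posterior lateral (115 RPKM), posterior oral (95.9 RPKM) and posterior medial (84.3 RPKM) to posterior nasal (29.1 RPKM). The ranges of each pair of neighbours in that order overlapped. The order therefore separates its ends but not its adjacent places.

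Along the anterior-posterior axis the mean Agtr2 level was 183 ± 57.2 RPKM (SD, n = 13) in anterior libraries and 78.1 ± 37.8 RPKM (SD, n = 12) in posterior ones. The difference was -1.35 (SE 0.26) on the log2(RPKM + 0.1) scale, posterior minus anterior. These SD and SE pool compartments, and so mix compartment differences with replicate spread. The 2 groups overlapped between 86.0 and 143 RPKM. At matched position, anterior and posterior did not overlap in medial (means 143 and 69.4 RPKM), lateral (205 and 118 RPKM) or nasal (183 and 33.8 RPKM), and overlapped in oral (200 and 91.6 RPKM). The groups also did not overlap for 11.9% (medial), 18.9% (lateral), 8.26% (oral) and 20.3% (nasal) of all genes with at least 5 RPKM in 3 of the libraries compared. The ratio of means was 2.06 in medial, 1.74 in lateral, 2.19 in oral and 5.41 in nasal. Without the 7 nasal libraries the log2 difference was -0.98, a setting chosen after the data were seen.

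Lateral exceeded medial in Agtr2 in both domains. The mean was 205 ± 29.0 against 143 ± 12.05 RPKM in the anterior palate (n = 3 and 3), a log2 difference of 0.51 (SE 0.15). It was 118 ± 24.6 against 69.4 ± 30.4 RPKM in the posterior palate (n = 3 and 3), a log2 difference of 0.86 (SE 0.45). Neither pair of groups overlapped, which was also true of 21.3% of all genes tested in the anterior and 6.62% in the posterior comparison. Without replicate 2 of posterior medial the posterior log2 difference was 0.42. Lateral and medial libraries of the same domain shared no sequencing run, so that run and position cannot be told apart there. With run as a covariate over all 25 libraries the log2 differences were 1.25 (anterior) and 1.52 (posterior).

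Oral exceeded nasal in Agtr2 in each posterior library, while in the anterior palate the sign of the difference depended on single libraries. Whether the 2 differences themselves differ was not tested. The posterior mean was 91.6 ± 23.6 RPKM in oral and 33.8 ± 10.1 RPKM in nasal (n = 3 and 3), a log2 difference of 1.44 (SE 0.29), and the groups did not overlap, as for 11.8% of all genes tested. The anterior mean was 200 ± 106 RPKM in oral and 183 ± 50.7 RPKM in nasal (n = 3 and 4), a log2 difference of -0.00 (SE 0.44), and the groups overlapped. The anterior value ranged from -0.36 without replicate 1 of anterior oral to 0.52 without replicate 3.

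Within sequencing runs, Agtr2 was higher in the anterior library in 22 of 22 pairs of an anterior and a posterior library from the same run, and in 10 of 10 pairs that also shared position. These pairs reuse libraries, come mostly from run G and are not independent. The share of all genes with such a count was not worked out. In run C the level was 130 RPKM in anterior nasal, 26.9 RPKM in posterior nasal, 86.0 RPKM in anterior oral and 66.1 RPKM in posterior oral. Each of those 4 was the lowest of its own compartment. The same libraries also had the highest implied read totals of their compartments, at 4.07, 6.07, 6.56 and 6.25 M reads in that order. The part of depth was not tested. Run G held anterior medial at 129 to 151 RPKM, posterior medial at 34.4 and 89.4 RPKM, posterior oral at 95.9 and 113 RPKM and posterior nasal at 45.3 RPKM. Run H held anterior lateral at 222 RPKM, posterior lateral at 94.4 and 115 RPKM and posterior nasal at 29.1 RPKM.

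The summed level of 6 osteoblast markers (Runx2, Sp7, Ibsp, Alpl, Spp1 and Bglap, all 6 in the table) was highest in posterior nasal. It was 378 to 547 RPKM there, where Agtr2 was lowest, and 46.9 to 185 RPKM in the other compartments. Outside posterior nasal the 2 levels did not run opposite throughout. Posterior medial, next lowest in Agtr2 by the median, had 67.9 to 74.3 RPKM of markers. Anterior lateral, near the top in Agtr2, had 58.6 to 185 RPKM. Over the 25 libraries Pearson's r between the 2 log2 levels was -0.644, as a description, since the libraries share runs and compartments. No r was worked out without posterior nasal. None of the 6 markers was at 0 in all libraries. The part of these cells in the Agtr2 difference was not tested, and in bulk samples fewer cells of a type and less RNA per cell cannot be told apart. The other 9 marker lists had r between -0.175 (red cell) and 0.434 (smooth muscle and pericyte) with Agtr2.

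**Figure D2:**
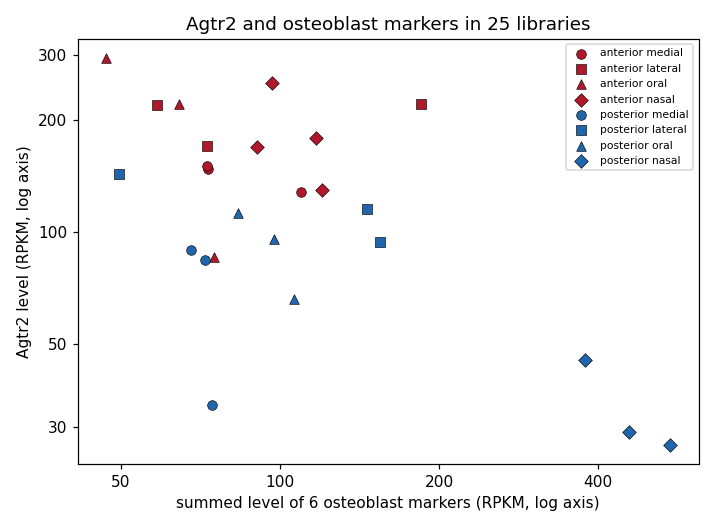
Agtr2 level (vertical axis, RPKM, log axis) against the summed level of 6 osteoblast markers (horizontal axis, RPKM, log axis), 1 point per library, anterior in red and posterior in blue, with marker shapes for position. The 3 posterior nasal libraries stand alone at 378 to 547 RPKM of markers. Among the other 22 libraries the markers lie between 46.9 and 185 RPKM while Agtr2 runs from 34.4 to 294 RPKM.

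The type 1 receptors were far below Agtr2. Agtr1a (gene ID 11607, chromosome 13, 30428225 to 30474736, mm9) averaged 1.66 RPKM and ranged from 0 to 4.40 RPKM, about 0 to 47 reads per library. It was listed at 0 in 2 libraries, replicates 1 and 2 of posterior medial, with 1.25 RPKM in replicate 3. In the other 23 libraries the Agtr2 level was 15.96 to 367 times that of Agtr1a, with a median of 76.7, both per length.

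Agtr1a was 1.21, 0.935 and 1.89 RPKM in anterior medial, and 1.88, 1.90 and 2.38 RPKM in anterior lateral. It was 0.801, 0.879 and 0.801 RPKM in anterior oral and 4.40, 1.37, 2.33 and 1.94 RPKM in anterior nasal. In the posterior palate it was 3.62, 2.39 and 1.505 RPKM in lateral, 1.26, 2.04 and 1.79 RPKM in oral and 1.23, 2.84 and 0.873 RPKM in nasal. Anterior oral did not overlap anterior nasal, and posterior lateral did not overlap posterior medial. That was true of 3.62% and 6.59% of all genes above 0 in a library compared, and of 3.67% and 6.62% of those past the filter for testing. No library reached the 5 RPKM used as the minimum for testing. With that filter removed, limma's adjusted p was 1.00 for anterior oral against nasal, 0.938 for posterior lateral against medial and 0.0617 across the 8 compartments.

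Agtr1b (gene ID 11608, chromosome 3, 20213395 to 20266099, mm9) was listed at 0 in 15 of 25 libraries and reached at most 0.861 RPKM, or 4 reads. It was at 0 in all libraries of anterior lateral, posterior medial and posterior nasal, and was found in 3 of 3 anterior oral libraries at 0.568, 0.401 and 0.0710 RPKM. Differences between compartments were not detectable at this depth.

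Agtr1a and Agtr1b are close paralogs, and reads that align to more than 1 place had been removed, so that both values count unshared sequence. Their coding sequences, each of 1080 bases in 1 exon, were identical at 90.8% of positions in the GENCODE M21 transcripts (GRCm38). Of the 2150 windows of 50 bases, the read length, in Agtr1a, 33 were also found in Agtr1b (1.53%) and 0 in Agtr2. The 33 lie in 2 runs of identical bases, 66 bases at coding positions 75 to 140 and 65 bases at coding positions 280 to 344 of both genes. The first is on chromosome 13 from 30381028 to 30381093 (plus strand, Agtr1a) and chromosome 3 from 20316301 to 20316366 (minus strand, Agtr1b) of GRCm38. The second is on chromosome 13 from 30381233 to 30381297 and chromosome 3 from 20316097 to 20316161. They are shown, 5′ to 3′ in the coding sense, as the stretches where a read could not be given to one of the 2 genes.
Run at 75 to 140: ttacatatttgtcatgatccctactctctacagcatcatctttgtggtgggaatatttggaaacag
Run at 280 to 344: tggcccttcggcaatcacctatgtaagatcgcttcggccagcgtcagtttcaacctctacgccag

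Mas1 (gene ID 17171, chromosome 17, 13033871 to 13061009, mm9) was found in all 25 libraries at 1.69 to 10.2 RPKM, with a mean of 5.16 RPKM. Its compartment means ran from 4.45 ± 1.28 RPKM in posterior medial to 5.83 ± 3.04 RPKM in anterior nasal, within the spread of replicates, and limma's adjusted p across the 8 compartments was 0.991. The 4 libraries of run C held the highest Mas1 level of their own compartments, at 10.2 RPKM in anterior nasal, 8.56 RPKM in anterior oral, 7.81 RPKM in posterior nasal and 8.59 RPKM in posterior oral. The gene overlaps Airn, a long noncoding RNA gene, over 69.6% of its span. Airn averaged 39.1 RPKM (14.45 to 56.4 RPKM). The library kit did not keep strand, so reads of the 2 genes cannot be told apart where they overlap.

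Together the 4 receptor genes summed to a level of which Agtr2 made up 74.8% to 98.6% in a library, with a median of 94.9%. The lowest share was in replicate 1 of posterior nasal, where Mas1 was at 7.81 RPKM and Agtr1a at 1.23 RPKM. Since Mas1 values may hold reads of Airn, the share of Agtr2 is approximate.

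**Figure D3:**
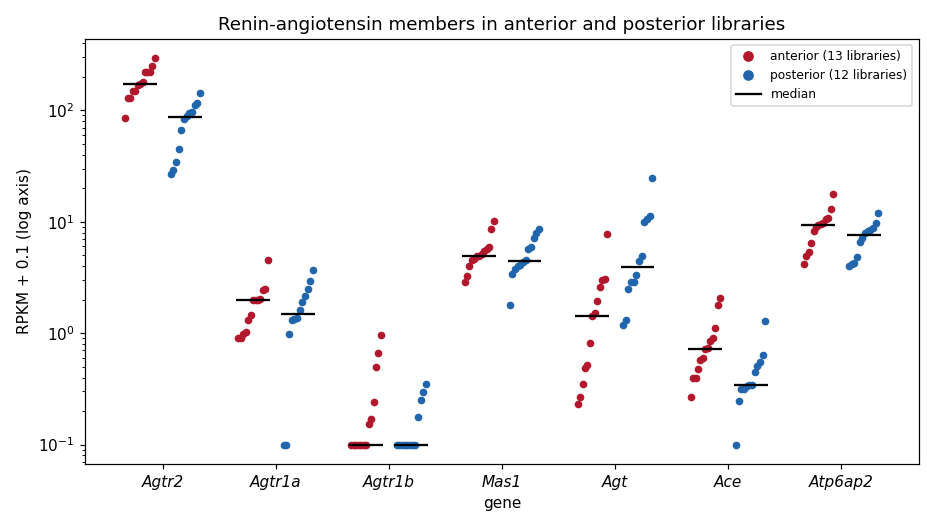
Level of each of the 7 genes (vertical axis, RPKM + 0.1, log axis) in the 13 anterior libraries (red) and the 12 posterior libraries (blue), with the median of each as a black line. Agtr2 lies above the other 6 genes, Agtr1b is at 0 (drawn at 0.1) in 15 libraries, and the posterior points of Agt lie higher on the whole, with overlap.

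Agt (gene ID 11606, chromosome 8, 127080487 to 127093607, mm9) was found in all 25 libraries, from 0.134 to 24.7 RPKM around a mean of 4.06 RPKM. It was 0.390, 0.246 and 0.422 RPKM in anterior lateral, 1.33, 1.403 and 0.166 RPKM in anterior oral, 2.51, 2.89, 0.723 and 0.134 RPKM in anterior nasal and 7.65, 2.98 and 1.84 RPKM in anterior medial. In the posterior palate it was 4.33, 9.81 and 2.80 RPKM in lateral, 24.7, 2.78 and 4.79 RPKM in medial, 1.22, 11.1 and 10.5 RPKM in oral and 1.07, 3.25 and 2.39 RPKM in nasal. The posterior mean was 6.56 RPKM and the anterior mean 1.75 RPKM, with overlap.

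Agt passed the filter only in the test across the 8 compartments, where it missed the threshold (limma, adjusted p = 0.0947). Of the 11913 genes in that test, 4.42% passed. The call was gained in 3 settings, with quantile normalization (adjusted p = 0.0386), without replicate 1 of posterior oral (0.0365) and without the 6 libraries whose alignments carry a line name (0.0142), the last chosen after the data were seen. The 4 libraries of run C held the lowest Agt level of their compartments. Without the filter, posterior against anterior was 2.03 (SE 0.56) on the log2 scale with adjusted p = 0.0564, and anterior lateral against medial -3.01 (SE 0.53) with adjusted p = 0.0934. The summed level of 6 red cell markers, which was 273 to 971 RPKM, had r = 0.628 with Agt over the 25 libraries. Its part in the Agt levels was not tested.

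Ace (gene ID 11421, chromosome 11, 105829261 to 105851261, mm9) was low, at 0 to 1.99 RPKM with a mean of 0.554 RPKM, about 0 to 54 reads. Anterior libraries averaged 0.741 RPKM and posterior ones 0.353 RPKM, with overlap, and limma without the filter gave adjusted p = 0.230 for that difference. It was listed at 0 in 1 library, replicate 2 of posterior medial.

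Atp6ap2 (gene ID 70495, chromosome X, 12164885 to 12194177, mm9) was found in all libraries at 3.91 to 17.8 RPKM around 8.12 RPKM. Compartment means ran from 6.19 ± 2.77 RPKM in anterior medial to 10.6 ± 1.95 RPKM in anterior nasal, and limma's adjusted p across compartments was 0.894. Anterior lateral against medial was 0.51 (SE 0.31, 95% interval -0.22 to 1.23, adjusted p = 0.510), and ranged from 0.25 without replicate 2 to 0.84 without replicate 3 of anterior medial.

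Among the 6 genes other than Agtr2, limma called 0 in any of the 6 comparisons. In lateral against medial the filter passed 1 of the 6 in the anterior and 2 in the posterior palate. In oral against nasal it passed 2 in the anterior and 1 in the posterior palate, while posterior against anterior kept 0 and the test across the 8 compartments kept 3. Of these tests 1 (Agt across compartments) had an unadjusted p under 0.05. Over all genes tested, the shares called were 2.51%, 0%, 0%, 1.25%, 3.32% and 4.42% in that order. With so few of the 6 tested, the count of 0 says little about them.

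Other genes of the pathway were taken from a list of 24 enzymes, receptors and receptor partners, of which 23 were in the table. Ren1 and Mrgprd, and Ctsg further on, were named after their values were seen. Renin was low. Ren1, which encodes it, was listed at 0 in 16 of 25 libraries, at 9.98 RPKM in replicate 1 of anterior nasal, and at no more than 1.72 RPKM elsewhere. Mrgprd, another receptor for short angiotensin peptides, was at 0 in 16 libraries and reached 0.394 RPKM. Replicate 1 of anterior nasal held the highest level of Ren1, Ace, Agtr1a, Agtr1b and Ctsg of all 25 libraries, and it was the library with the most genes above 0.

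By contrast, 16 of the 23 genes reached a mean of 5 RPKM in at least 1 compartment, most of them peptidases with many substrates. Averaged over 25 libraries these included Mme at 88.5 RPKM, Ctsa at 31.3 RPKM, Prep at 20.4 RPKM, Prcp at 17.8 RPKM, Cpa3 at 17.2 RPKM, Lnpep at 12.63 RPKM, Enpep at 12.4 RPKM, Anpep at 11.3 RPKM, Thop1 at 11.1 RPKM and Dpp3 at 11.1 RPKM. Rnpep (9.24 RPKM), Cma1 (8.96 RPKM) and Nln (6.32 RPKM) were lower. The receptor partners Mtus1, which binds the type 2 receptor, and Agtrap, which binds the type 1 receptor, were at 7.87 and 6.15 RPKM. Klk1, a kallikrein, reached the minimum through a single library, replicate 3 of anterior nasal, at 57.2 RPKM.

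Posterior against anterior, 1 of the 12 pathway genes tested was higher and 1 was lower, beside 1.66% of all 8608 genes in each direction. The median log2 difference was 0.19 over the 12 genes and 0.03 over all genes tested. Enpep encodes aminopeptidase A, which removes the first residue of angiotensin II. It was 17.3 ± 8.07 RPKM (SD, n = 12) in posterior and 7.88 ± 3.25 RPKM (SD, n = 13) in anterior libraries, a log2 difference of 1.08 (SE 0.24, limma, adjusted p = 0.00807). Mme encodes neprilysin, a membrane peptidase that cuts angiotensin I among many other peptides. It was 61.9 ± 20.9 RPKM in posterior and 113 ± 26.4 RPKM in anterior libraries, a log2 difference of -0.92 (SE 0.18, limma, adjusted p = 0.00185). Both fits pooled the compartments of a domain, so these SD and SE mix compartment differences with replicate spread. With embryos unknown, the same embryo may be counted more than once.

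Enpep was 8.02, 6.74 and 5.93 RPKM in anterior medial, and 12.9, 17.6 and 15.0 RPKM in posterior medial. It was 5.86, 5.08 and 5.03 RPKM in anterior lateral and 6.08, 19.4 and 19.1 RPKM in posterior lateral. In oral compartments it was 6.10, 7.44 and 4.38 RPKM (anterior) and 12.5, 8.03 and 13.1 RPKM (posterior). In nasal compartments it was 10.8, 14.9, 12.99 and 9.22 RPKM (anterior) and 21.2, 32.2 and 31.3 RPKM (posterior). Posterior exceeded anterior at each of the 4 positions, and nasal was the highest position in both domains. The Enpep call held in all 37 settings tried (adjusted p 6.07e-05 to 0.0170), and without the nasal libraries the log2 difference was 1.10 (adjusted p = 0.00437). Within runs, the anterior library was the higher in 0 of 22 pairs, and in 0 of 10 that also shared position. These pairs reuse libraries that entered the fit, and were not tested. Of the 10 marker lists, osteoblast (r = 0.685), endothelium (r = -0.612) and smooth muscle and pericyte (r = -0.594) had the r with Enpep farthest from 0 over the 25 libraries. The smooth muscle and pericyte sum was 113 to 241 RPKM in anterior and 75.0 to 136 RPKM in posterior libraries, and the endothelium sum 109 to 290 and 85.5 to 268 RPKM. The part of these cells was not tested.

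Mme was 83.2, 92.4 and 82.6 RPKM in anterior medial and 26.6, 50.8 and 31.1 RPKM in posterior medial. It was 113, 118 and 115 RPKM in anterior lateral and 56.0, 98.4 and 64.9 RPKM in posterior lateral. It was 180, 108 and 82.3 RPKM in anterior oral and 64.6, 47.3 and 71.0 RPKM in posterior oral. The highest level of all libraries, 180 RPKM, was in replicate 1 of anterior oral, the library with the fewest implied reads. Mme was at 114, 129, 132 and 119 RPKM in anterior nasal and 70.1, 78.8 and 83.7 RPKM in posterior nasal. Anterior lay above posterior at each position without overlap, which was true in either direction of 11.9% (medial), 18.9% (lateral), 8.26% (oral) and 20.3% (nasal) of all genes compared. The call ended with sequencing run as a covariate (log2 difference -0.62, adjusted p = 0.0976). Within runs the anterior library was the higher in 22 of 22 pairs, which reuse libraries and were not tested. Of the 10 marker lists, red cell (r = -0.455) and smooth muscle and pericyte (r = 0.354) had the r with Mme farthest from 0 over the 25 libraries. The red cell sum was 273 to 695 RPKM in anterior and 322 to 971 RPKM in posterior libraries, and the part of these cells was not tested.

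**Figure D4:**
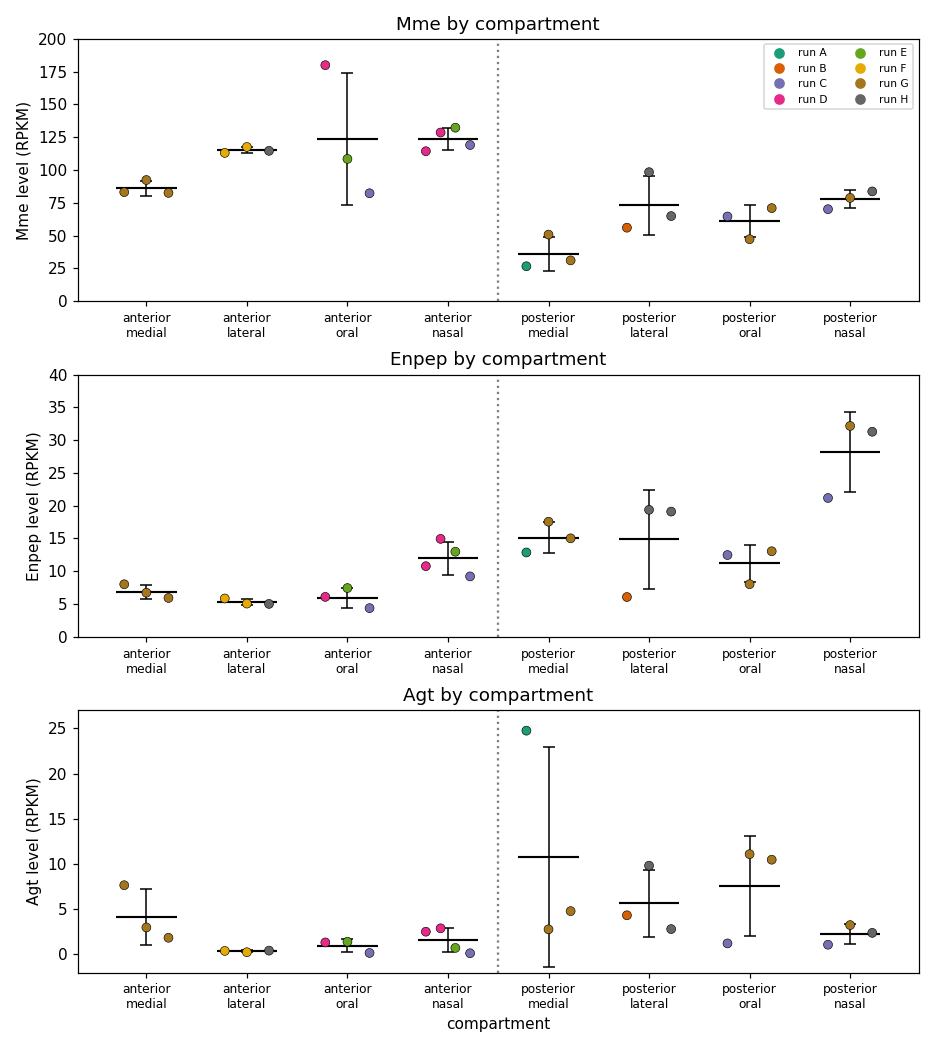
Levels of Mme, Enpep and Agt (vertical axes, RPKM, linear) in each library by compartment, with points coloured by sequencing run, the mean as a horizontal line and the SD as a bar (n = 3, and 4 for anterior nasal). Anterior points lie above posterior ones at each position for Mme and, for Enpep, posterior means are the higher at each position. A single posterior medial library of run A at 24.7 RPKM sets the SD of Agt there.

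Across the 8 compartments 3 of the 15 pathway genes tested passed, namely Mme (adjusted p = 0.00153), Enpep (adjusted p = 0.00172) and Cpa3 (adjusted p = 0.0257).
The share over all genes was 4.42%. Mme lost its call with run as a covariate (adjusted p = 0.675). Cpa3, a carboxypeptidase of mast cell granules, was highest in anterior nasal at 31.3 to 71.6 RPKM. It was lowest in posterior nasal at 0.893 to 3.57 RPKM, and about as low in anterior medial at 1.05 to 3.36 RPKM. Its call ended in 9 of 35 settings, among them run as a covariate (adjusted p = 0.282) and the fit without the libraries carrying a line name (0.110). Cpa3 is itself 1 of the 7 mast cell markers, whose summed level was 51.9 to 134 RPKM in anterior nasal and 3.11 to 65.7 RPKM elsewhere. The part of mast cells was not tested.

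Within domains, limma called 0 pathway genes in each of the 4 comparisons of lateral with medial and oral with nasal, where 2.51% and 0% (lateral against medial, anterior and posterior) and 0% and 1.25% (oral against nasal) of all genes were called. An unadjusted p under 0.05 was found for 3 of 13 and 1 of 15 pathway genes tested in lateral against medial, beside 15.0% and 1.54% of all genes. In oral against nasal it was found for 3 of 15 and 3 of 13, beside 2.98% and 8.001% of all genes. Enpep was lower in posterior oral than in posterior nasal by a log2 difference of -1.33 (SE 0.28, 95% interval -1.97 to -0.70), with adjusted p = 0.0754, and by -1.001 in the anterior palate (SE 0.28, adjusted p = 0.885). The groups did not overlap in either domain, as for 11.8% of all genes tested in the posterior and 3.67% in the anterior palate. Anpep, aminopeptidase N, was 15.7 ± 3.72 RPKM in anterior lateral and 6.91 ± 2.58 RPKM in anterior medial, a log2 difference of 1.20 (SE 0.28, adjusted p = 0.0758). Mme was 0.42 (SE 0.11, adjusted p = 0.105) in anterior lateral against medial and 1.03 (SE 0.38, adjusted p = 0.957) in the posterior. Cma1, mast cell chymase, was -2.59 (SE 0.51, adjusted p = 0.403) in anterior oral against nasal. In posterior lateral against medial and in anterior oral against nasal no gene of the whole table passed, and 159 and 318 genes had an unadjusted p under 0.05.

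Over the 25 libraries the log2 level of Agtr2 had Pearson's r of 0.537 (Spearman's rho 0.742) with Mme and -0.691 (rho -0.608) with Enpep. These are descriptions over libraries that share compartments, runs and depth.

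The genes most like Agtr2 were sought over the 25 libraries among 11912 genes, by Pearson's r of the log2 levels. The highest was Itga8, an integrin alpha chain, at r = 0.876, followed by AW551984 (0.854), Nrp1 (0.851), Bnc2 (0.838), Wnt2 (0.833), A930038C07Rik (0.829), Med13 (0.827), Nfib (0.825), 8430431K14Rik (0.816) and Nfia (0.816). Nrp1 is a receptor for semaphorins and vascular endothelial growth factor, Wnt2 is a secreted ligand, and Nfia and Nfib are transcription factors. Itga8 means ran from 83.6 RPKM in anterior oral to 17.9 RPKM in posterior medial. After each compartment's mean was taken away, r with Agtr2 was 0.835 for Itga8 and 0.739 for Med13, but 0.113 for Nfia, whose r with Agtr2 was 0.943 over the 8 compartment means. Itga8 was picked as the highest over these same libraries, and replicates of a compartment also differ in sequencing run. The lowest r were those of Cadm1 (-0.850), Selenbp1 (-0.850), Uck2 (-0.845), Slc29a1 (-0.843) and Zfp385b (-0.841).

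For the other members above 5 RPKM in at least 3 libraries, the genes most alike were others. They were Npas3 (r = 0.792), Il11ra1, Mtss1, Pcolce and Dad1 for Agt. For Mas1 they were Golgb1 (r = 0.826), Cep110, Golga4, Ttf1 and Akap9, and for Atp6ap2 they were Ap3s1 (r = 0.866), Fam164a, Actr10, Fam76b and Gmfb. The likeness to Mas1 lay within compartments rather than between them for Cep110 (r = 0.885 after compartment means were taken away and 0.229 between compartment means). For Golgb1, Golga4, Ttf1 and Akap9 the r was 0.805 to 0.851 within compartments and 0.448 to 0.774 between their means. The 4 libraries of run C held the highest Mas1 level of their compartments, and the part of run in this likeness was not tested.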

How the data were processed

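Total RNA from LCM palate compartments was amplified (NuGEN Ovation RNA-Seq V2, which does not keep strand), tagmented with Nextera and sequenced as single-end reads of 50 bases. The authors deposited RPKM values, made in GeneSpring after duplicate reads and reads with more than 1 alignment were removed; the submitters' processing notes name TopHat and mm9. Read totals were worked out from the steps between low values, and reads per gene with GENCODE M21 transcript lengths, so they are approximate.

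Groups and replicate numbers came from the sample labels, and sequencing runs from alignment names heading the study's supplementary table. Log2(RPKM + 0.1) was fitted with limma 3.58.1 in R 4.3.3 (lmFit, eBayes), with Benjamini-Hochberg adjusted p over all genes tested and a threshold of 0.05. Pairs of compartments needed 5 RPKM in 3 compared samples, anterior against posterior 10 RPKM in 6, and the F test across compartments 5 RPKM in 3 of 25. The pooled Audic-Claverie test that the study used for anterior against posterior needs counts, and limma took its place. The code was tested on simulated data. If replicates were not from separate animals, p-values measure the spread between these samples alone. Anterior against posterior also treated libraries of different, overlapping compartments as replicates, with no term for position in the main fit.

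Members and lists were chosen with earlier results of these data known. Named were the 7 genes, pathway genes past the threshold or with a mean of 5 RPKM in any compartment, and genes by rank of likeness. Ren1, Mrgprd and Ctsg were named outside that rule, after their values were seen. A gene of the pathway list is not reported here. Same-numbered anterior oral and nasal libraries deviated together (r 0.239, 0.215 and 0.130 across genes, each over 0.1) and were taken as paired in an alternative fit. Replicates 2 and 3 of anterior oral, however, had their highest r with replicates 3 and 4 of anterior nasal, which shared their sequencing runs. Pairing by number therefore did not follow the best match for those libraries. Figures used matplotlib 3.10.9 in Python 3.11.15.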

Additional observations from a re-analysis of the deposited data

Results flagged for a closer look

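Agtr1b in anterior nasal was the single value that stood away from its group, among 12 genes looked at in the 1 group of 4 libraries. Replicate 1 was at 0.861 RPKM (4 reads) and the others at 0.0524, 0 and 0 RPKM, so that the gap took up 0.939 of the range. For normally distributed values, chance alone sets apart about 1 in 20 such groups. That rate does not hold for Agtr1b, which was at 0 in 15 of 25 libraries. No gene had every library moving one way in the anterior palate and the opposite way in the posterior one, over 24 pairs of contrasts looked at.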

How the results depend on the processing

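Agtr1a, Agtr1b and Ace passed no filter, so values were recomputed for Agtr2, Mas1, Agt and Atp6ap2 alone. Mas1, Agt and Atp6ap2 had no call in the main fits, so they could change side only by gaining one. Of 310 recomputed values, 294 kept their direction and side of the threshold, or for Agtr2 moved by less than 1 residual SD. The Agtr2 differences did so in 104 of 106, a count that does not measure stability. Such Agtr2 differences cannot move by 1 residual SD when 1 library is left out, and a change of filter or variance trend leaves them unchanged. They ranged, leaving out 1 library at a time, over 0.44 to 0.64 (anterior lateral against medial), 0.42 to 1.11 (posterior), -0.36 to 0.52 (anterior oral against nasal), 1.28 to 1.67 (posterior) and -1.45 to -1.23 (posterior against anterior); with run as a covariate the first 2 were 1.25 and 1.52. Values near 0 turned sign: Mas1 in anterior oral against nasal was 0.26 with quantile normalization and 0.28 with the replicate block (leave-one-out -0.38 to 0.41), and Atp6ap2 was 0.36 (anterior) and -0.27 (posterior) in oral against nasal without the libraries carrying a line name (leave-one-out -0.66 to 0.26 and -0.26 to 0.36), and -0.59 to 0.17 in posterior lateral against medial. Counts of all genes called moved more, and the cause was not tested. Anterior lateral against medial (262) gave 157 with no filter, 157 with the replicate block, 0 with run, 31 with all 25 libraries in one fit and 55 to 195 leaving out 1 library, each but replicate 3 of anterior medial moving it by over 1.5 times. Posterior lateral against medial (0) gave 1 at 1 RPKM, 2 with quantile normalization, 1 with run, 25 with all libraries and 0 to 1. Anterior oral against nasal (0) gave 2 at 1 RPKM, 4 with run, 6 with all libraries and 0 to 6. Posterior oral against nasal (132) gave 11 with no filter, 82 with a mean-variance trend, 15 with run, 68 with all libraries, 0 without those carrying a line name and 12 to 57, each library left out moving it. Posterior against anterior (286) gave 485 with no filter, 559 at 1 RPKM, 160 with run, 128 without nasal libraries and 231 to 414. Across compartments (526) run gave 177 and leaving out 1 library 386 to 737. The replicate block changed no call of Mas1, Agt or Atp6ap2, and ended that of Cpa3 across compartments (adjusted p = 0.114). Same-numbered libraries were not taken as paired in the other 3 pairs of compartments (r -0.155 to 0.418). The replicate block was nevertheless fitted there too, as in every comparison. Mas1 had no value in 5 fits, where it fell under the filter. Over all libraries Agtr1b, Ace and Agtr1a rest on at most about 4, 54 and 47 reads.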
